A study of Oryza sativa with 20 samples.

Results

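On a rice cDNA microarray, 214 of 6080 features were higher in chilled seedlings at 0.5 h or 2 h and did not keep that level in both replicates at 12 h or 24 h. A feature is a row of the deposited values. The paper describes its features as spotted cDNAs made from expressed sequence tags (ESTs), and counts fewer of them than the 6080 here. What the additional rows hold was not determined. The members were chosen by the log2 ratios at 0.5, 2, 12 and 24 h. A feature was called higher at a time point when its log2 ratio was 0.848 or more in both biological replicates, which is 1.8-fold. Each column had first been set to a median of 0, and the duplicate spots had been averaged. The members are therefore early features by construction, and their values at these 4 time points are given as a description without a test. The rule did not use 6 h, so the test is made there.

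The chilled samples were S3-stage seedlings of the japonica line CT6748-8-CA-17, which tolerates chilling, held at 10°C for 0.5, 2, 6, 12 or 24 h. The controls were seedlings of the same line and stage at 29°C, a separate control RNA being used for each time point. Two-colour hybridization gave the chilled (Cy3) over control (Cy5) log2 ratio on 10 slides, with 2 independent replicates per time point and 2 spot sets per slide. All plants came from a single cultivar, the methods name no dye swap, and the spotted cDNAs came from libraries of cold-stressed seedlings and drought-stressed plants, so that each ratio holds any dye difference and the array is not a sample of all rice genes. The labels give seedlings as the source, and the methods state that RNA was taken from shoots. Ratios carry no level of expression, hence tissue markers could not be checked and a change in the share of a cell type could not be told apart from a change per cell.

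The direction at 2 h rests on a choice. Both columns of replicate 2 at 2 h ran opposite to replicate 1 as deposited (r = -0.43 across features) and were multiplied by -1 under the rule. Whether the dyes were exchanged or the ratio was inverted is unknown. With the sign as deposited the rule gave 156 features, of which 146 were among the 214. These 146 are the members called higher at 0.5 h. A member called higher at 2 h alone could not be among them, because its replicate 2 ratio is negative with that sign. In addition, the source name of the second spot set of replicate 2 at 6 h gave another time for the chilled channel, whereas its title gave 6 h, and it was kept at 6 h.

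Low temperature slows enzymes, stiffens membranes and disturbs the balance between light capture and carbon use. Plants are known to register this within minutes through calcium, membrane and redox signals. Kinases, hormone pathways and transcription factors then alter transcript levels, and early changes in other plants are often transient whereas metabolic and protective genes tend to follow later. Jasmonate and gibberellin, hormones that restrain and promote growth, are among the pathways that cold is known to touch.

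Of the 214 members, 146 were called higher at 0.5 h and 109 at 2 h. Over the whole array 183 features (3.01%) passed at 0.5 h and 150 (2.47%) at 2 h. The members fell into 105 features that passed at 0.5 h and not at 2 h, 68 that passed at 2 h and not at 0.5 h, and 41 that passed at both. A further 63 features passed early and also at 12 h or 24 h, and were not members. The 0.5 h members are the less firmly measured, because the replicates at 0.5 h correlated across features at only r = 0.07, against 0.34 to 0.43 at the other time points. Replicate 1 at 0.5 h correlated with the samples of the other time points at -0.08 to 0.45, and replicate 2 at 0.19 to 0.48. At 0.5 h, 746 features reached the level in replicate 1 and 631 in replicate 2, and the 183 shared ones were 24.5% and 29.0% of these lists. At 2 h the 150 shared features were 59.8% of the 251 in replicate 1 and 18.7% of the 802 in replicate 2.

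The duplicate spots differed in the same way. Of the 146 members that passed at 0.5 h, 37 had all 4 spots at or above the level and 27 lacked a value in 1 spot or more, and in replicate 2 the median gap between the spots of a feature was 1.02 on the log2 scale. Of the 109 that passed at 2 h, 57 had all 4 spots at the level, with a median gap of 0.19 in replicate 1 and 0.34 in replicate 2. With less than 0.1 to spare, 61 members passed, and 107 features that were not higher late missed by less than 0.1. Just inside the limit, feature 3890 (no gene listed) had 0.85 and 1.07 in replicates 1 and 2 at 2 h. Just outside it, LOC4340846 had 0.85 and 0.93 at 2 h, the first value falling 0.001 short of the limit. At the late end, LOC4338999 remained a member with 0.83 and 1.33 at 24 h, and LOC4336813 was excluded with 0.85 and 1.81.

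The 3 classes had different courses. In the members higher at 0.5 h and not 2 h, the median log2 ratio was 1.17 and 1.28 in replicates 1 and 2 at 0.5 h, 0.48 and 0.83 at 2 h, 0.23 and -0.09 at 6 h, 0.18 and 0.37 at 12 h, and 0.63 and 0.65 at 24 h. Their lowest point was thus at 6 h and 12 h, with higher values again at 24 h. In the members higher at 2 h and not 0.5 h, the medians were 0.69 and 0.95 at 0.5 h, 0.98 and 1.11 at 2 h, 0.70 and 1.06 at 6 h, 0.45 and 0.61 at 12 h, and 0.29 and 1.08 at 24 h. These features were above 0 already at 0.5 h, in replicate 1 in 68 of 68 and in replicate 2 in 62 of 66 with a value. In the members higher at both early times, the medians were 1.18 and 1.39 at 0.5 h, 1.09 and 1.25 at 2 h, 0.98 and 1.14 at 6 h, 0.34 and 0.69 at 12 h, and 0.21 and 1.16 at 24 h. The class differences at 0.5 h and 2 h follow from how the classes were made.

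**Figure D1:**
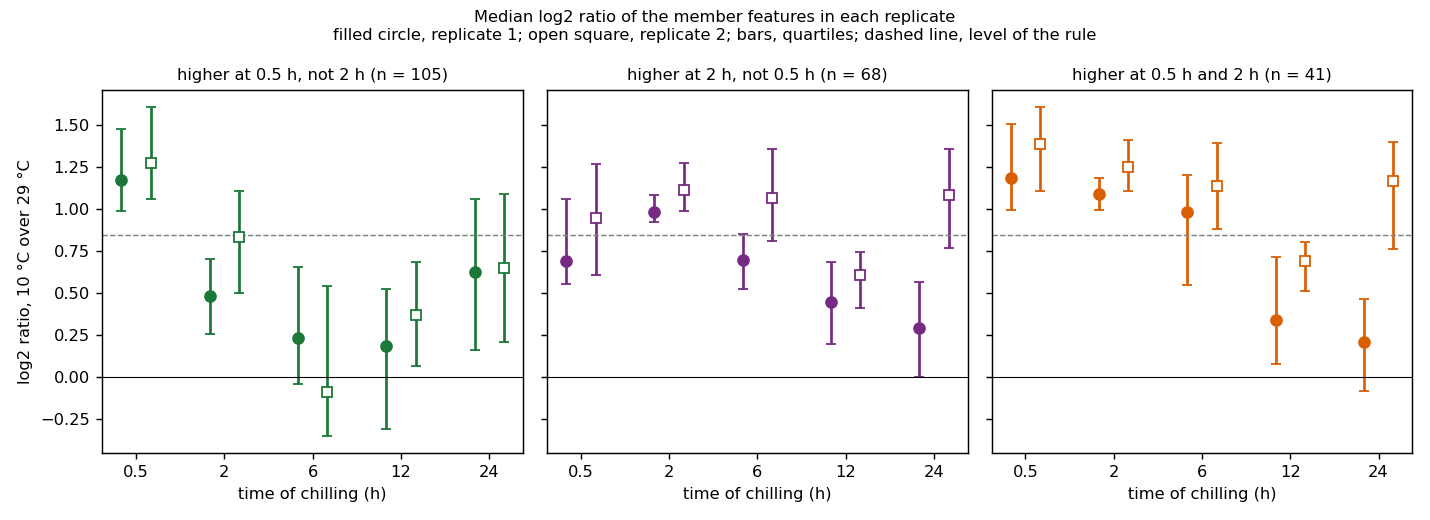
Median log2 ratio (10°C over 29°C, y axis) of the member features at each time of chilling (x axis), by the early time at which they passed. Filled circles are replicate 1, open squares replicate 2, bars the quartiles over features and the dashed line the level of 0.848; at 24 h replicate 2 lies at 1.08 and 1.16 in the 2 classes that passed at 2 h, whereas replicate 1 lies at 0.29 and 0.21.

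The word early holds for these features only in the sense that both replicates were required late. Of the 214 members, 53 were below the level, or without a value, in every replicate at 12 h and 24 h, 114 reached it in 1 late replicate, and 47 in 2 late replicates, one at each time. Over the array 141 features (2.32%) reached it in both replicates at 12 h and 202 (3.32%) at 24 h, and none of these is a member by construction. At 24 h, 107 members reached the level in replicate 2 and 41 in replicate 1, whereas over the array 600 features (9.87%) did so in replicate 2 and 843 (13.9%) in replicate 1. The larger count in replicate 2 came from the features that passed at 2 h. Among the 68 higher at 2 h and not 0.5 h, 45 reached the level in replicate 2 at 24 h and 6 in replicate 1, and among the 41 higher at both times 30 did so in replicate 2 and 1 in replicate 1. Among the 105 higher at 0.5 h only, 32 reached it in replicate 2 and 34 in replicate 1. At 12 h the counts were nearer, 33 members in replicate 2 and 27 in replicate 1, beside 398 and 710 of all features. In the mean of the replicates, 74 members were at or above the level at 24 h and 19 at 12 h, beside 584 and 454 of all features. Without replicate 1 at 24 h the rule left 107 members, and without replicate 2 it left 173.

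**Figure D2:**
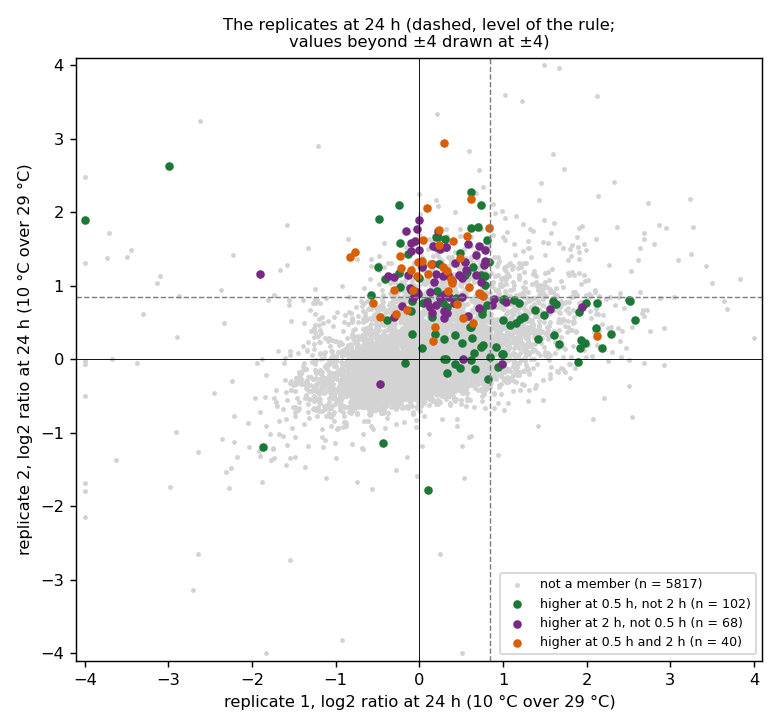
Log2 ratio (10°C over 29°C) at 24 h in replicate 1 (x axis) and replicate 2 (y axis) for every feature, with members coloured by class and the dashed lines at the level of the rule; values beyond 4 in size are drawn at the edge. The upper right field holds no member by construction, and 107 members lie at or above the level in replicate 2 and 41 in replicate 1, beside 600 and 843 of all features.

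At 6 h the features were tested with limma against a log2 ratio of 0 across 5926 features, those measured in each of the 10 biological samples. Of the members, 205 could be tested and 9 could not. One member (1), NINJA1, was called higher at an adjusted p under 0.05 and 0 were called lower; over the array 4 features (0.0675%) were called higher and 0 (0%) lower. At an unadjusted p under 0.05, 97 of the 205 members were higher and 0 lower, beside 582 of 5926 features (9.82%) higher and 79 (1.33%) lower. The rule did not use the 6 h values, although the spread in the fit is shared with the time points it used. The median of the tested members at 6 h was 0.675, or 1.60-fold, beside 0.01 over all features tested. Under the rule's own criterion, 38 of 214 members passed in both replicates at 6 h, while 144 of 6080 features did (2.37%).

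The classes differed at this untouched time point, a split drawn after the values were seen. Of the members higher at 0.5 h only, 16 of 99 tested were higher at an unadjusted p under 0.05, with a median log2 ratio of 0.10. Of those higher at 2 h only, 50 of 66 were, with a median of 0.89, and of those higher at both times 31 of 40, with a median of 1.02. By the rule's criterion 5, 11 and 22 features of these classes passed at 6 h. Members higher at 2 h thus mostly kept a ratio above 0 at 6 h (100 of 106 tested), whereas 64 of 99 did so among those higher at 0.5 h only and 3025 of 5926 (51.0%) over all features tested. The difference between the classes was not tested.

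**Figure D3:**
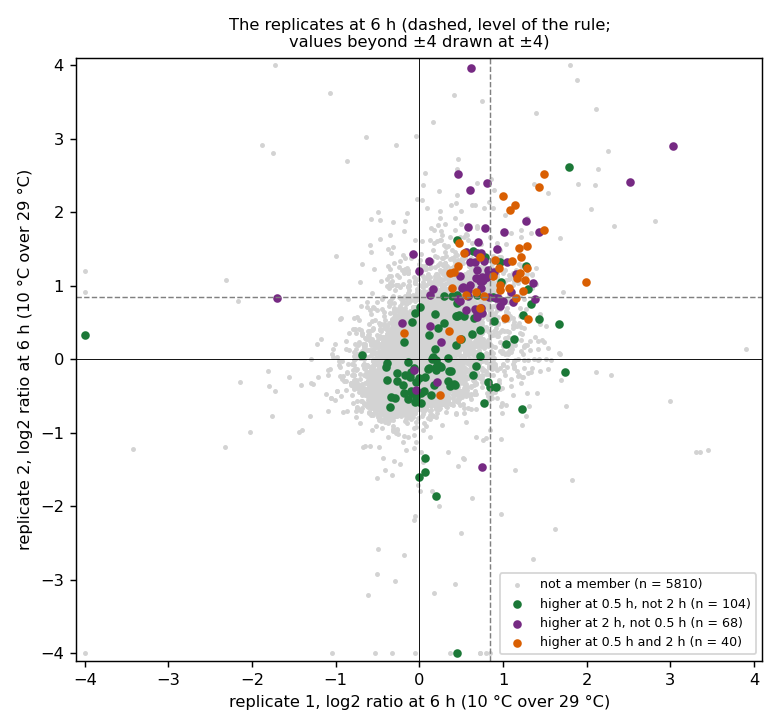
Log2 ratio (10°C over 29°C) at 6 h, a time the rule did not use, in replicate 1 (x axis) and replicate 2 (y axis), members coloured by class, other features grey and the dashed lines at 0.848; values beyond 4 in size are drawn at the edge. The members that passed at 2 h lie mostly above 0 in both replicates, and 38 of 214 members lie at or above the level in both.

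Only a minority of the members carry a gene name. In the platform annotation 118 members had 1 gene, 2 had several and 94 had none, and 21 features, of 20 genes, had a gene symbol in the rice RefSeq table (assembly ASM3414082v1). Members were 2.94% of the 714 features with a symbol and 3.52% of all features. The named members are described below by what their products do.

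Hormone signalling held 3 of the named members, among 38 features of that list (7.89%), beside 2.94% members among all features with a symbol. NINJA1 encodes the adaptor that links the JAZ repressors of jasmonate signalling to a corepressor. Its log2 ratio in replicates 1 and 2 was 1.05 and 1.02 at 0.5 h, 1.12 and 0.59 at 2 h, 1.79 and 2.61 at 6 h, 0.55 and 0.79 at 12 h, and 0.57 and 1.18 at 24 h. It was above 0 in all 10 samples and its highest pair came at 6 h, after the time that made it a member. At 6 h NINJA1 rose by 2.20 on the log2 scale (SE 0.29, adjusted p = 0.0163 in limma). With the block on the replicate number the adjusted p was 0.0525, with the first spot set alone 0.0579, and with the 2 h sign as deposited, which widens the pooled spread, 0.499. Without replicate 2 at 6 h the log2 ratio was 1.79 and the adjusted p 0.999, in a fit where 0 of all features were called higher. COI2 encodes an F-box protein of the jasmonate receptor family. Its log2 ratios were 0.51 and 0.94 at 0.5 h, 0.90 and 0.99 at 2 h, 1.10 and 0.91 at 6 h, 0.56 and 0.75 at 12 h, and 0.68 and 1.42 at 24 h. Its 6 h ratio did not pass the test (adjusted p = 0.219).

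The gibberellin receptor gene gid1 had the highest mean ratio at each early time among the named members. Its log2 ratio was 2.41 and 1.77 at 0.5 h, 1.99 and 1.29 at 2 h, 1.49 and 2.52 at 6 h, 0.86 and 0.80 at 12 h, and 0.23 and 1.56 at 24 h. The early values correspond to 4.26-fold at 0.5 h and 3.12-fold at 2 h in the mean of the replicates. It stayed at or above 1.29 in all 6 samples up to 6 h, and at 12 h replicate 2 missed the level by a small margin. Its spots were far apart in places. In replicate 1 they had 3.43 and 1.39 at 0.5 h, 2.62 and 1.36 at 2 h, and -0.125 and 1.84 at 12 h. In replicate 2 at 24 h they had 0.284 and 2.84. Every spot at 0.5 h and 2 h was above the level. At 6 h the log2 ratio was 2.00 (SE 0.36, adjusted p = 0.0607), which did not pass; it passed with the values as deposited, with robust estimation of the spread and with the 6 h arrays alone (adjusted p = 0.0473 to 0.0483).

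A kinase and both RNA-binding proteins passed at 0.5 h and 2 h alike. MPK16, a mitogen-activated protein kinase, was 1 of 49 features in the list of kinases, phosphatases and calcium proteins. It was the only member there (2.04%), beside 2.94% members among all features with a symbol. Its log2 ratio was 0.97 and 1.04 at 0.5 h, 0.91 and 1.002 at 2 h, 1.28 and 1.24 at 6 h, 0.66 and 0.90 at 12 h, and 0.34 and 0.93 at 24 h. The replicates were close up to 6 h, where the test gave an adjusted p of 0.111, and 0.0252 when the spots were kept apart. RBP-208 encodes an RNA-binding protein. It had 1.18 and 1.75 at 0.5 h, 1.15 and 0.86 at 2 h, 1.49 and 1.75 at 6 h, 1.54 and 0.62 at 12 h, and 0.17 and 0.25 at 24 h. Only RBP-208 and ADIPOR3 among the named members had both replicates below 0.3 at 24 h. Its 6 h log2 ratio of 1.62 (SE 0.28) had an adjusted p of 0.0554, and of 0.0468 to 0.0473 with the 6 h arrays alone, robust estimation or the values as deposited. ML2, a MEI2-like RNA-binding protein, had 0.94 and 1.07 at 0.5 h, 0.90 and 1.25 at 2 h, 1.30 and 0.54 at 6 h, and 0.40 and 1.61 at 24 h.

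RDR2 encodes an RNA-dependent RNA polymerase that in Arabidopsis makes the precursors of small RNAs which guide DNA methylation. Its log2 ratio was 1.17 and 0.88 at 0.5 h, 0.60 and 0.85 at 2 h, -0.05 and -0.58 at 6 h, -0.27 and -0.48 at 12 h, and 0.85 and 0.03 at 24 h. Its spots in replicate 2 at 0.5 h had 0.365 and 1.40. RDR2 and EGY2 were the named members below 0 in both replicates at 6 h and again at 12 h. PRMT10, a protein arginine methyltransferase, had 0.98 and 1.19 at 2 h, and 0.44 and 0.65 at 0.5 h. POLD2, the small subunit of DNA polymerase delta, had 1.18 and 1.15 at 2 h, with 0.67 and 1.20 at 0.5 h. The feature of osRAD23, whose product delivers ubiquitinated proteins to the proteasome, had 1.08 and 1.11 at 2 h and 3.03 and 2.90 at 6 h, the highest 6 h pair of the named members. It had 2.02 in replicate 1 at 0.5 h and no value in replicate 2, which kept it out of the limma fit, and at 24 h it had -1.91 and 1.16. With the 6 h arrays alone it was among 7 members called higher.

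Among membrane and transport genes, 2 features of the water channel gene PIP2-2 were both members, out of 21 features in the list of membrane transport. They were 9.52% of that list, beside 2.94% members among all features with a symbol. That share counts 1 gene, and the transporter MTP8, also a member, was not matched by the list. The first PIP2-2 feature had a log2 ratio of 0.71 and 1.28 at 0.5 h, 0.98 and 0.98 at 2 h, 0.73 and 1.44 at 6 h, and 0.15 and 1.29 at 24 h. The second had 1.73 and 1.63 at 0.5 h, 0.47 and 1.03 at 2 h, 0.16 and 0.03 at 6 h, 2.07 and 0.04 at 12 h, and 1.38 and 0.67 at 24 h. In the mean of the replicates it was above the level late, with 1.06 at 12 h and 1.02 at 24 h. The features thus entered by different times, one at 2 h and one at 0.5 h, and parted at 6 h. PIP aquaporins form a family of similar sequences, so that each spotted cDNA may bind transcripts of its relatives. MTP8, a manganese transporter of the metal tolerance protein family, had 1.31 and 0.92 at 0.5 h, 1.06 and 1.47 at 2 h, 1.03 and 0.56 at 6 h and -1.06 and 0.74 at 12 h. RMR1, a sorting receptor for vacuolar proteins, had 1.22 and 1.17 at 0.5 h, 0.54 and 0.92 at 2 h, -0.14 and -0.03 at 6 h, and 0.62 and 2.27 at 24 h. For both MTP8 and RMR1, the first spot had no value in replicate 2 at 0.5 h, so that value came from the second spot alone. ADIPOR3 encodes a membrane protein related to the adiponectin receptors of animals. It had 0.91 and 1.03 at 0.5 h, 0.14 and 0.35 at 2 h, and between -0.08 and 0.52 from 6 h on. In replicate 2 at 0.5 h its spots had -0.15 and 2.20, so that this value rested on 1 spot, and its 2 other features had -0.80 and 0.31, and -0.43 and 0.29, at 0.5 h.

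Plastid, wall and cytoskeletal genes completed the named members. EGY2, a chloroplast membrane metalloprotease in Arabidopsis, had 0.93 and 0.89 at 0.5 h, -0.09 and 0.49 at 2 h, -0.34 and -0.51 at 6 h, and -0.39 and -0.28 at 12 h. ALADH, the aminolevulinate dehydratase of chlorophyll and haem synthesis, had 0.67 and 1.24 at 0.5 h, 0.95 and 1.01 at 2 h, 0.90 and 1.18 at 6 h, and 0.28 and 1.12 at 24 h. EGY2 was thus below 0 at 6 h and 12 h, whereas ALADH was above 0 in all 10 samples. BGLU27, a beta-glucosidase, had 1.14 and 1.23 at 2 h and 0.73 and 0.97 at 6 h. RCN11, a xylosyltransferase that acts on N-glycans, had 0.90 and 1.24 at 2 h and 0.75 and -1.47 at 6 h. That last value averaged spots at 0.60 and -3.55, the second being the spot set of conflicting label, while both spots of replicate 1 were above 0. KIN12C, a kinesin motor, had 0.82 and 2.38 at 0.5 h and 0.89 and 1.09 at 2 h. The feature annotated bip131 had 1.02 and 1.40 at 0.5 h, 0.20 and -0.14 at 6 h, 2.13 and 0.36 at 12 h, and 1.67 and 0.21 at 24 h. Its spots in replicate 2 at 0.5 h had 2.26 and 0.53. In the mean of the replicates it was above the level late, with 1.25 at 12 h and 0.94 at 24 h. Besides bip131 and the second PIP2-2 feature, other named members had a late mean above the level. At 24 h these were RMR1 (1.45), COI2 (1.05), ML2 (1.003), gid1 (0.897), POLD2 (0.8855), NINJA1 (0.878) and BGLU27 (0.865). At 12 h RBP-208 had a mean of 1.08. For RMR1 the 24 h mean was above its 0.5 h mean of 1.195, and for COI2 above its 2 h mean of 0.943. The remaining named members were below the level in both late means.

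**Figure D4:**
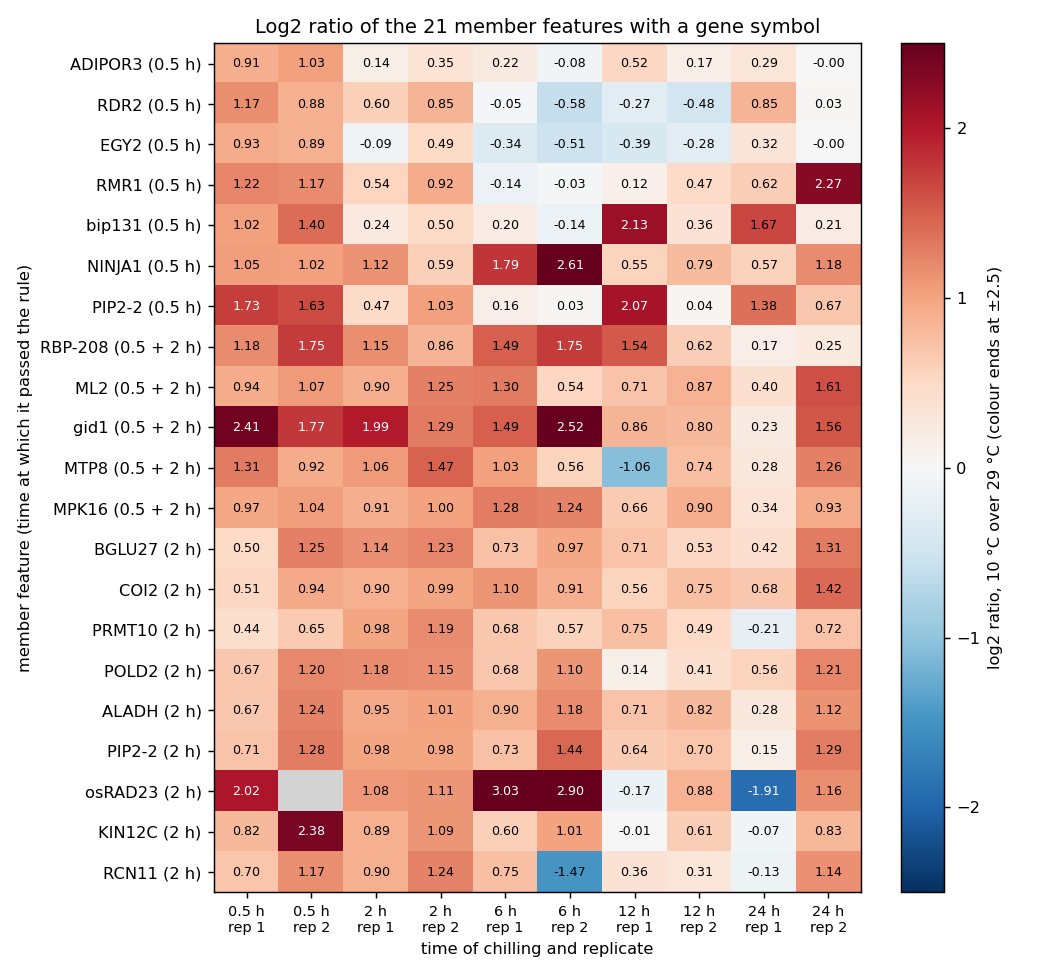
Log2 ratio (10°C over 29°C, colour and number in each cell) of the 21 member features with a gene symbol (rows, with the time at which each passed) in the 10 biological samples (columns); grey marks a missing value. NINJA1, gid1, RBP-208 and osRAD23 have 6 h values of 1.49 or more in both replicates, and RDR2, EGY2 and RMR1 are below 0 in both at 6 h.

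The other lists of pathway genes held few members or none. Members were 2.94% of all 714 features with a symbol, and at that share lists this small hold few or none. Members were 1 of 23 features of ribosomal proteins and translation (RBP-208), 1 of 20 cytoskeletal features (KIN12C) and 1 of 25 features of the cell wall and phenylpropanoids (BGLU27). None came from the lists of transcription factors (0 of 30 features), antioxidants and redox (0 of 15), ubiquitin and proteasome (0 of 21), cold, dehydration and osmotic stress (0 of 8), sugar and starch metabolism (0 of 22) or glycolysis and fermentation (0 of 14), nor from the lists of photosynthesis, lipids, defence, and clock and light. The chaperone list of 10 features matched bip131 by the letters of its symbol alone, and it is not counted here as a chaperone. The osRAD23 feature was not matched by the ubiquitin list. At 6 h only the hormone list held a limma call, NINJA1, 1 of 38 tested. For the transcription factors the median log2 ratio was -0.13 at 0.5 h and -0.03 at 2 h, and for the cold and dehydration genes -0.68 at 0.5 h and -0.32 at 2 h, beside -0.04 and 0.01 over all features. Each is a median of replicate means, and at 0.5 h the replicates correlated at only r = 0.07. Where the features of each list stand in the table is not given here. Low medians were common among the lists: 15 of the 17 were below 0 at 0.5 h, with ubiquitin and proteasome at -0.52 and glycolysis and fermentation at -0.49, and 12 of 17 were below 0 at 2 h. These lists were matched by symbol, and cover only the 714 features that have one.

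The highest early ratios belonged to features without a symbol. Feature 3038 (no gene listed) had the highest mean at 0.5 h, with 5.92 and 2.04 in replicates 1 and 2. It had no value in replicate 1 at 2 h or in replicate 2 at 12 h, and -3.00 and 2.63 at 24 h. It lies in the rows with extreme values and no listed gene that the next paragraph describes, so its rank may not reflect a transcript. LOC4343246 had 1.87 and 3.61 and LOC4325472 0.93 and 3.84, so that these high means rested largely on 1 replicate. Features 4497 and 1806 (no gene listed) had 2.41 and 2.54, and 1.95 and 2.88, and were high in both. At 2 h features 5274 and 1226 led with 1.27 and 3.81, and 1.12 and 3.71, again mostly in replicate 2. LOC4346522, with 2.55 and 1.62, and LOC4329820, with 1.79 and 2.10, were high in both replicates at 2 h and also had 2.05 and 1.89, and 1.33 and 1.78, at 0.5 h. At 6 h LOC4346522 had 1.15 and 2.09 (adjusted p = 0.126), and feature 4792, a member by 2 h with 0.94 and 0.99, had 1.28 and 1.88 (adjusted p = 0.0516).

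In all, 9 members had a missing value, counted as not reaching the level. Of these, 5 lay in rows 376 to 380 of the repeat described below, where none of the 80 features had a listed gene, and the values there were extreme: feature 380 had 1.30 and 1.28 at 0.5 h, -16.38 and 0.33 at 6 h, and no value in replicate 1 at 24 h.

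Where a member's gene was spotted more than once, the other spots seldom shared its ratio. Another feature of the same gene was present for 25 members, of 24 genes. Apart from PIP2-2, whose pair were both members, there were 26 other features. Of these, 0 reached the level in both replicates at 0.5 h and 0 at 2 h. Members were left out of the 26, so an early pass could remain only with a late one. The counts of 0 are thus largely fixed by the rule. Of all 607 features of genes spotted more than once, members included, 3.79% reached the level in both replicates at 0.5 h and 3.29% at 2 h. The members concerned had median log2 ratios of 0.98 and 1.28 at 0.5 h and 0.77 and 0.99 at 2 h, as the rule requires, and the other features of the same genes had -0.05 and -0.10 at 0.5 h and -0.10 and -0.22 at 2 h. For example, COI2 had a second feature with 0.20 and -0.71 at 0.5 h and -0.33 and -0.74 at 2 h, ALADH one with -0.93 and -0.43 at 0.5 h and -0.57 and -0.77 at 2 h, and RBP-208 one with -0.18 and -0.08 at 0.5 h and 0.40 and 0.16 at 2 h. The nearest to an exception was feature 3821 of LOC4327922, with 0.49 and 0.80 at 0.5 h and 0.74 and 0.89 at 2 h. The same count was made over the 607 features of genes spotted more than once. A second feature of a gene called higher was called higher too in 0 of 27 pairs at 0.5 h, 0 of 23 at 2 h and 0 of 24 at 6 h. At 12 h it was in 4 of 26 pairs (15.4%), and at 24 h in 0 of 31. Of the 607, 3.46% were called higher at 6 h, 4.12% at 12 h and 4.45% at 24 h. At 0.5 h and 2 h these pairs include those of the members, so they give no separate comparison there. Which part of the transcript each cDNA covers was not analysed here.

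The classes were also unlike in where their features stand in the table. The 6080 rows repeat in 16 blocks of 380, and the features with one series of EST accession numbers, 1139 of the 4269 with an EST, all lie in the first 100 rows of a block. These rows hold 26.3% of all features. They held 69.1% of the members higher at 2 h only (47 of 68) and 65.9% of those higher at both times (27 of 41), but 12.4% of those higher at 0.5 h only (13 of 105). The array medians moved with the same rows. Features in rows 1 to 100 had a median log2 ratio of -0.59 and 0.38 in replicates 1 and 2 at 0.5 h, 0.17 and 0.08 at 2 h, 0.24 and 0.45 at 6 h and -0.16 and 0.19 at 24 h, whereas those in rows 101 to 380 had 0.14 and -0.09 at 0.5 h, -0.05 and -0.01 at 2 h, -0.06 and -0.15 at 6 h and 0.07 and -0.04 at 24 h. Within rows 1 to 100 the 1139 features of the EST series had medians of -0.75 and 0.40 at 0.5 h and 0.28 and 0.48 at 6 h, and the 461 others -0.12 and 0.36 at 0.5 h and 0.16 and 0.36 at 6 h. Of these others, the 161 with an EST listed had -0.105 and 0.155 at 0.5 h, and -0.002 and 0.21 at 6 h. Members higher at 0.5 h only, 2 h only and both numbered 6, 34 and 17 in the series. They numbered 7, 13 and 10 in the 461 others, and 1, 0 and 1 in the 161. The part of the rows and of the EST series in the results was not tested.

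Within the rows the pattern of the classes was partly kept. In rows 101 to 380, the 21 members higher at 2 h only had 6 h medians of 0.66 and 0.83, the 14 higher at both times 0.49 and 0.87, and the 92 higher at 0.5 h only 0.19 and -0.12. In rows 1 to 100, the 47 members higher at 2 h only had 0.73 and 1.12, the 27 higher at both times 1.07 and 1.24, and the 13 higher at 0.5 h only 0.72 and 0.84. The low 6 h values of the 0.5 h class were thus seen in the later rows and not in the first 100. The difference between the replicates at 24 h stood in both sets for the 2 h classes, at 0.28 and 1.12 in rows 1 to 100 and 0.31 and 0.83 in rows 101 to 380 for the members higher at 2 h only. When each band of 20 rows was set to a median of 0, an alternative chosen after the values were seen, the rule gave 195 features, 132 of them among the 214. Of its members higher at 0.5 h only, 31.5% then lay in the first 100 rows, and of those higher at 2 h only 43.9%, beside 12.4% and 69.1% without this centring. The 6 h medians in replicates 1 and 2 were then 0.38 and 0.36 for members higher at 0.5 h only, 0.45 and 0.75 for those higher at 2 h only, and 0.72 and 0.94 for those higher at both times.

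**Figure D5:**
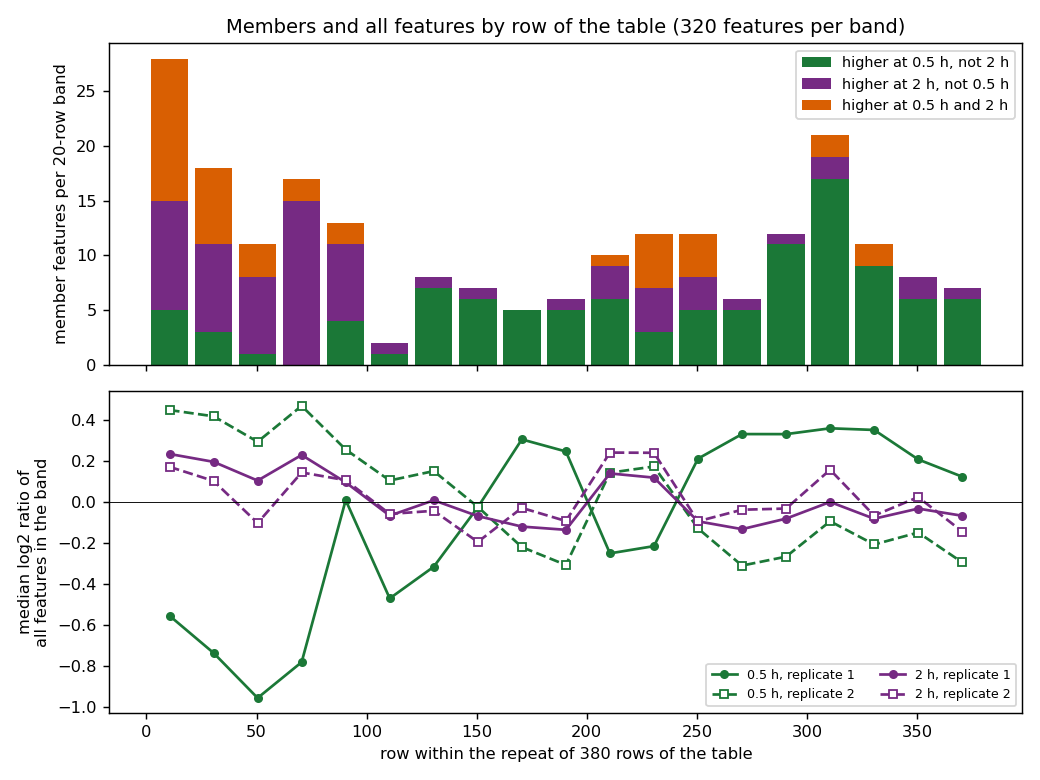
Above, the number of member features in each band of 20 rows (320 features) of the repeat of 380 rows, stacked by class; below, the median log2 ratio (10°C over 29°C) of all features in the band in each replicate at 0.5 h and 2 h. Members that passed at 2 h crowd in rows 1 to 100 (47 of 68 and 27 of 41), and replicate 1 at 0.5 h has its lowest band medians in rows 1 to 80.

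Among the member genes that could be placed on the genome, the pair LOC4332034 and LOC4332035 were direct neighbours, with no protein-coding gene between them in the RefSeq order, and LOC4327920 and LOC4327922 stood 2 genes apart. The same count for other sets of genes was not computed.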

How the data were processed

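Each value was deposited by the authors as a log2 ratio of Cy3 (chilled) over Cy5 (control), after subtraction of the background from the median intensity and normalization to a mean ratio of 1. In the deposited columns the mean ratio was 1.09 to 2.08. The 20 columns were read from the table of the series; 53 to 194 values per column were missing, 5492 features had a value in all 20 spot sets and 5926 in all 10 biological samples. Intensities were not analysed here, and precision is set by how many arrays there are.

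Both columns of replicate 2 at 2 h were multiplied by -1, each column was set to a median of 0, and the spots were averaged on the log2 scale. The level was 0.848. At 6 h limma 3.58.1 in R 4.3.3 was fitted to 5 time means (5 residual and 7.04 prior degrees of freedom), each 6 h mean being tested two-sided against 0 with Benjamini-Hochberg adjustment at 0.05 over 5926 features. An adjusted p in the text comes from this fit unless named otherwise. Python 3.11.15 with pandas 2.3.3 made the tables.

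The members and gene lists were chosen with earlier results of these data known. Named were the members with a gene symbol, the 5 highest at each early time, the members called at 6 h, those nearest the level, list members and other features of a named gene. Promoters and proteins were not analysed here. Alternatives were no centring, the 2 h sign as deposited, single spot sets, linear averaging, complete features, other levels, robust estimation, 6 h arrays alone, spots apart, the replicate block, the column of conflicting label left out, and each replicate left out.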

Additional observations from a re-analysis of the deposited data

Results flagged for a closer look

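In all, 3 named members had replicates on one side of 0 early and on the other side at 6 h; the difference was not tested, and the early side is what made them members. RDR2 averaged -0.32 at 6 h, against 1.03 at 0.5 h and 0.72 at 2 h. EGY2 averaged -0.42 at 6 h, against 0.91 at 0.5 h. RMR1 averaged -0.0853 at 6 h, against 1.20 at 0.5 h and 0.73 at 2 h. None of the 3 passed limma at 6 h (adjusted p = 0.650, 0.540 and 0.936). With 2 replicates per time point no group was large enough for an outlier test within a group.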

How the results depend on the processing

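The number of members was 355 with the values as deposited, 407 at 1.5-fold, 127 at 2-fold, 398 when the mean of the replicates had to reach the level, 53 when every late replicate had to stay below it and 109 with 0.5 h left out. Leaving out 1 replicate gave 107 to 766 members, 553 without replicate 1 and 695 without replicate 2 at 0.5 h, 766 without replicate 1 at 2 h, and 107 without replicate 1 at 24 h. At 6 h, 0 members were called higher with the 2 h sign as deposited, with the replicate block and with the first spot set alone, 2 with the spots kept apart, 4 with robust estimation and with the values as deposited, and 7 with the 6 h arrays alone; leaving out a 6 h replicate gave 0 to 2, a lone sample being assumed to vary like the others. Over all features, 0 were called higher with the 2 h sign as deposited and with the block, 1 with bands of rows centred, 2 with either spot set, 12 with robust estimation and with the values as deposited, 18 with the 6 h arrays alone and 0 to 16 without a 6 h replicate; 0 to 9 were then called lower. The median of the members at 6 h was 0.48 with bands of rows centred and 0.58 to 0.71 with a replicate left out, and 0.10, 0.89 and 1.02 in members higher at 0.5 h only, 2 h only and both. The labels and methods do not say whether the replicate numbers pair slides across time points. The differences between replicates correlated between time points at -0.26 to 0.28, with 5 of 10 pairs over 0.1. The block left 0 calls over all features, beside 4 without it.

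Small 6 h ratios changed sign with the processing. ADIPOR3 had -0.0385 with the first spot set alone, -0.0365 with the conflicting column left out, and -0.0775 to 0.222 without 1 replicate. The bip131 feature had -0.088 with the first spot set and -0.14 to 0.202 without 1 replicate. RCN11 had 0.63 with the first spot set, 0.68 with the conflicting column left out and -1.47 to 0.75 without 1 replicate. RMR1 had 0.0568 with bands of rows centred. The cause was not tested.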
